A study of Rattus norvegicus with 12 samples.

Results

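Cytosolic ribosomal protein genes were described in the livers of 12 rats. The set held the genes whose symbol begins with Rpl or Rps and a digit, together with Rplp0 and Rpsa. Rps6k kinases and symbols marked as pseudogenes were left out. By this rule 48 of the 14217 named genes on the array were members, 33 of the large and 15 of the small ribosomal subunit. All animals were male Wistar rats, an outbred laboratory strain, labelled 5 weeks old. They received the purified AIN93G diet for 4 days and then, for 11 days, the same diet with 20% maple syrup (6 arrays) or with 20% of a sugar mix syrup of similar sugar composition (6 arrays). Food was withdrawn for the last 16 hours. The labels give 7 rats for the maple syrup diet and 8 for the other, so not every rat has an array used here.

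Each ribosome joins a large subunit, which forms peptide bonds, to a small subunit, which reads the messenger RNA. The proteins of both are made in the cytoplasm and carried to the nucleolus, where they are assembled on ribosomal RNA. Each subunit takes its proteins in fixed proportion. In animals many ribosomal protein messengers begin with a C followed by a run of C and T bases, the 5′ terminal oligopyrimidine tract, through which the nutrient-sensing kinase mTOR controls their translation. In liver, ribosome content is known to vary with feeding and fasting.

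Promoter sequences from RefSeq (build GRCr8) were found for 43 of the 48 members. The stretches below are examples with and without this tract, which is more frequent among them than among all members. The arrays measured the level of the messengers and not their translation. Each holds the last 18 bases before and the first 12 bases from the annotated start, 5′ to 3′ on the gene's strand. Capitals mark the unbroken run of C and T from the start, where it opens with C and holds at least 4 further bases.
Rplp0: ggtgaccgcaccgcacttCTCTCgccaggc
Rpl19: gcccgcgaccagcaagctCTTTCCTTTCgc
Rpl37a: cgcgcatgcccgttgcgtCTCTTCCTCTTC
Rps15: agccgctgacaccgcttcCTTTTCCCagca
Rps3a: cgcgagttgtacttccgcCCTTTTggctct
Rps6: cgtgacgcctcctaggcggtcggctgtgtc
Rps27l: atagtttattcatttgtcattatttgtggt
Rpl3l: tttgacctctggtgcctggtggggaggtcc

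These stretches lie at chr12:46718379-46718408 (minus strand) for Rplp0, chr10:83519046-83519075 (plus) for Rpl19, chr9:81748073-81748102 (plus) for Rpl37a and chr7:10068104-10068133 (minus) for Rps15. Rps3a lies at chr2:173827031-173827060 (minus) and Rps6 at chr5:106420529-106420558 (minus). Rps27l lies at chr8:76443640-76443669 (plus) and Rpl3l at chr10:14258428-14258457 (plus). A C followed by 4 bases that are each C or T stood exactly at the annotated start, on the gene's strand, in 12 of 43 members (27.9%), against 2.63% of the 33469 promoters in the table and 2.65% of those of measured genes. With the first base allowed within 5 bases of the annotated start, 22 of 43 members held it (51.2%), against 17.0% of all promoters. It stood at the exact start in 10 of 29 large and 2 of 14 small subunit members, and within 5 bases in 14 of 29 and 8 of 14, so the order of the subunits turned with the window.

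Other short motifs were counted on both strands over the whole window, from 250 bases before to 50 after the start. The CGCG element, a palindrome that the factor BANP is known to bind, was present in 4 of 43 members (Rpl26, Rpl4, Rps28 and Rps6; 9.30%), against 0.373% of all promoters and 0.81% of those of measured genes. CCGGAAG, a core that ETS family factors bind, was present in 10 members (23.3%), against 8.75% of all promoters and 15.1% of those of the 11733 measured genes with one. AAGATGGC, part of the sequence known for YY1, was present in 4 (9.30%), against 3.17% and 4.73%. TATAAA was present in 6 (14.0%), against 14.2% and 8.45%. These are matches of letters, and binding was not measured. Matches to different motifs may overlap.

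The array values are the authors' processed score. Its levels resemble log2 intensities, but it varies far less between animals than log2 intensities do. The median standard deviation (SD) of a member over the 12 animals was 3.24e-06, against 7.35e-06 for all genes, and ran from 3.04e-07 (Rpl37a) to 0.00148 (Rps4y2). A difference in this score is therefore no fold change. Each gene is given here as a standardised level, its distance from its own mean over the 12 animals in units of its own SD. Diet differences are given as Hedges' g, the maple syrup mean less the sugar mix mean over the SD within diets. Array medians differed by up to 0.000132, more than most members varied, and no pair of arrays held identical values. The number of arrays limits the precision. Levels of different probe sets are not comparable. As a check of the tissue alone, the 13 measured hepatocyte markers lay at a median percentile of 99.8 of all genes, with Alb (albumin) at 15.2, and the 11 lymphocyte markers at 24.9.

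By symbol, 43 members lay outside a list of paralogs. Of the 48, 38 had a mean level over 11, the lowest of them at 11.3; this describes the probe sets and ranks no gene against another. The other 10 lay at 10.2 or below. They included the 5 listed paralogs: Rpl3l (level 6.65), known from striated muscle; Rpl26l1 (7.36); Rpl7l1 (10.2), a factor of ribosome assembly; Rps27l (8.53), a target of p53; and Rps4y2 (8.05). Rpl39l1 (6.74) is a paralog that the list did not hold. Rpl28 (6.46), Rps13 (7.00), Rpl30 (7.19) and Rpl39 (9.61) are core ribosomal proteins that were named here only through probe sets at these lower levels. A further 36 probe sets carry several symbols, at least 1 of them ribosomal, and stand here as unnamed probe sets only.

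In the score as deposited the members varied together between animals, and no diet difference was called among them. This pattern over animals was described in that score only. Under quantile normalization 34 of the 48 members became constant over the animals, against 964 of all 14217 genes. In sugar mix replicate 3 the large subunit median was -1.53 and the small subunit median -1.71, the lowest of the 12 animals for both. The highest were maple syrup replicate 6, at 1.34 and 1.20, and sugar mix replicate 1, at 1.01 and 1.20. These animals were singled out after the values had been seen. Of the 48 members, 31 had their lowest level in sugar mix replicate 3 (64.6%), against 8.58% of all genes. Maple syrup replicate 6 was the highest animal for 23 members, against 10.0% of all genes, and sugar mix replicate 1 for 15, against 11.5%. In sugar mix replicate 3, 46 of the 48 members lay below their own mean, the exceptions being Rpl3l and Rpl7l1.

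**Figure D1:**
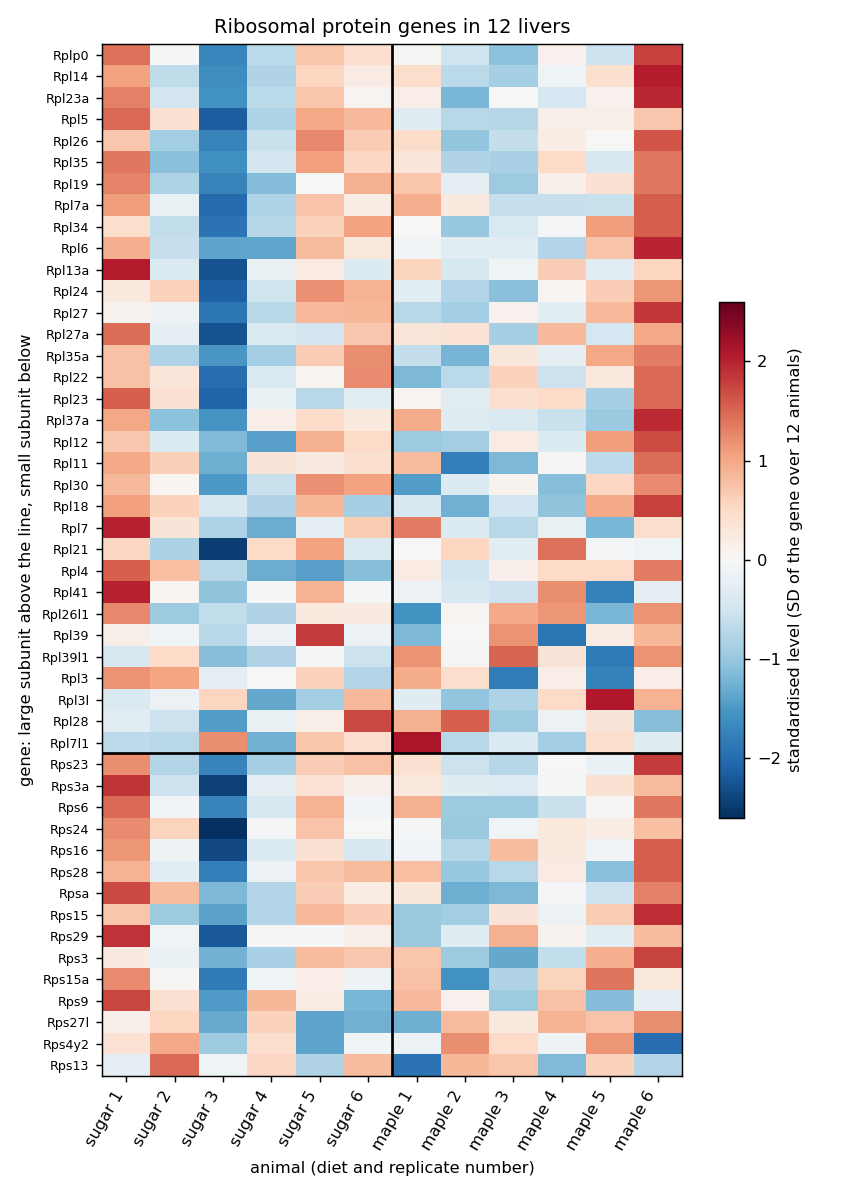
Standardised level of each of the 48 members (rows, large subunit above the line) in each of the 12 animals (columns), in SD of the gene over the animals; rows are ordered within a subunit by their correlation with the other members. The column of sugar mix replicate 3 is low in 46 of 48 rows, and the columns of sugar mix replicate 1 and maple syrup replicate 6 are mostly high.

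Among the large subunit genes, the medians of the other sugar mix animals were -0.20 in replicate 2, -0.71 in replicate 4, 0.67 in replicate 5 and 0.43 in replicate 6. Those of the other maple syrup animals were 0.081 in replicate 1, -0.51 in replicate 2, -0.40 in replicate 3, 0.033 in replicate 4 and 0.15 in replicate 5. The diets overlapped: sugar mix ran from -1.53 to 1.01 and maple syrup from -0.51 to 1.34. In the same order the small subunit medians were -0.075, -0.16, 0.40 and 0.13 with sugar mix and 0.28, -0.75, -0.34, -0.0046 and 0.20 with maple syrup. The subunits had the same lowest animal, and the same pair of animals stood highest in both. Their medians lay furthest apart in sugar mix replicate 4, where the large subunit was lower by 0.55 (large minus small -0.55), and in the other 11 animals the gap was between -0.20 and 0.30.

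**Figure D2:**
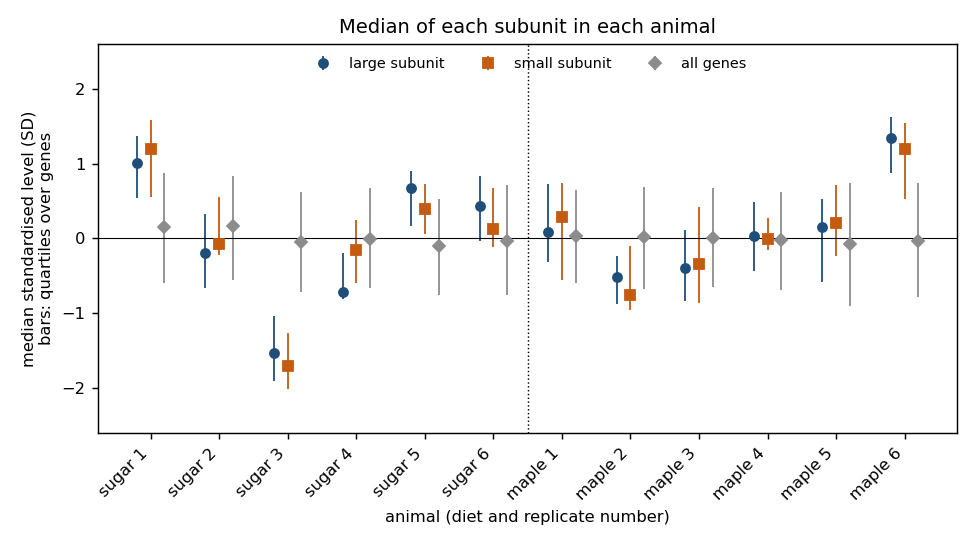
Median standardised level (SD) of the large subunit genes, the small subunit genes and all genes in each of the 12 animals, with bars from the lower to the upper quartile over genes. Both subunits are lowest in sugar mix replicate 3 (-1.53 and -1.71), while the median of all genes stays between -0.10 and 0.17.

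Other measurements of the same arrays were set beside this. The 966 other genes with a level over 11 had a median of -0.041 in sugar mix replicate 3, 0.038 in sugar mix replicate 1 and 0.11 in maple syrup replicate 6, and 7.25% of them were lowest in sugar mix replicate 3. The 36 unnamed probe sets with several symbols are not members, and were looked at after the members' values had been seen. Of these, 28 were lowest in sugar mix replicate 3, with a median of -1.77, and their medians were 0.68 in sugar mix replicate 1 and 1.46 in maple syrup replicate 6. For the 5′ probe sets of the RNA controls, sugar mix replicate 3 was at 0.14 for GAPDH, 0.28 for beta-actin and 0.71 for hexokinase, inside the range of the other animals. Maple syrup replicate 6 had the lowest array median (7.366187, others 7.366267 to 7.366320). Its part in the result was not tested. In whole liver, less of a messenger per cell and fewer cells that hold it cannot be told apart. Among cell type lists, the median in sugar mix replicate 3 was 0.41 for hepatocyte, -0.02 for macrophage and -0.16 for sinusoidal endothelial markers. It was -0.56 for stellate cell, -0.33 for cholangiocyte, -0.25 for lymphocyte, 0.77 for erythroid and -0.076 for acinar markers. Their part in the result was not tested.

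By role, the stalk of the large subunit recruits the factors that drive each step of translation. Of its proteins, Rplp0 and Rpl12 were measured here. For Rplp0 the sugar mix animals ran from -1.69 over a median of 0.21 to 1.43, and the maple syrup animals from -1.06 over -0.24 to 1.78. Its g was -0.053 (95% interval -1.10 to 0.99, 6 animals per diet), and its correlation with the mean of the other members over the 12 animals was 0.95, the highest of the members. Rpl12 ran from -1.42 over 0.07 to 0.92 with sugar mix and from -0.94 over -0.07 to 1.70 with maple syrup, with g = 0.23. The diets overlapped in both genes.

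Rpl5 and Rpl11 bind the 5S ribosomal RNA and, when unassembled, the p53 regulator MDM2. Rpl5 ran from -2.14 over 0.62 to 1.48 with sugar mix and from -0.74 over -0.08 to 0.71 with maple syrup, so that sugar mix held both its lowest and its highest animal. Its g was -0.23 (95% interval -1.27 to 0.83). Rpl11 ran from -1.26 over 0.38 to 0.98 with sugar mix and from -1.77 over -0.33 to 1.45 with maple syrup, with g = -0.40 (95% interval -1.45 to 0.67). Around the exit of the peptide tunnel, 5 of 6 measured members (Rpl19, Rpl22, Rpl23a, Rpl26 and Rpl35) were lowest in sugar mix replicate 3 and highest in maple syrup replicate 6; the sixth, Rpl39, did neither. Rpl26, a protein of this rim, had g = 0.19.

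In the small subunit, Rps3, Rps15, Rps16, Rps28 and Rps29 belong to the head, which holds the incoming messenger. Of these, 4 were lowest in sugar mix replicate 3, and Rps3 was lowest in maple syrup replicate 3. Rps3 ran from -1.22 over 0.03 to 0.80 with sugar mix and from -1.34 over 0.05 to 1.76 with maple syrup (g = 0.15). Rps6, the protein phosphorylated downstream of mTOR, ran from -1.72 over -0.07 to 1.48 with sugar mix and from -0.94 over -0.27 to 1.38 with maple syrup. Its g was -0.036 (95% interval -1.08 to 1.01), and in 17 of 36 pairings of a maple syrup with a sugar mix animal the maple syrup animal was higher. Rps3a and Rps29, the next brightest after Rps6 in this subunit, had g of 0.24 and 0.085. Of the brightest large subunit members, Rpl7a had g = 0.30 and Rpl27a 0.35.

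The question of the design was which liver genes differed between the diets. No member passed the test. With limma and Benjamini-Hochberg adjustment over all 14217 genes, 0 of 48 members were called at an adjusted p of 0.05, where 0.00% of all genes were. The adjusted p of every member was 0.9999. At an unadjusted limma p of 0.05, 0 members were counted, where 4.33% of all genes (616) were. The exact permutation test over all 924 arrangements of the animals also counted 0 members at an unadjusted p of 0.05 and 607 of all genes, and called 0 genes after adjustment. Maple syrup and sugar mix animals overlapped in all 48 members, and 0.0985% of all genes did not overlap.

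**Figure D3:**
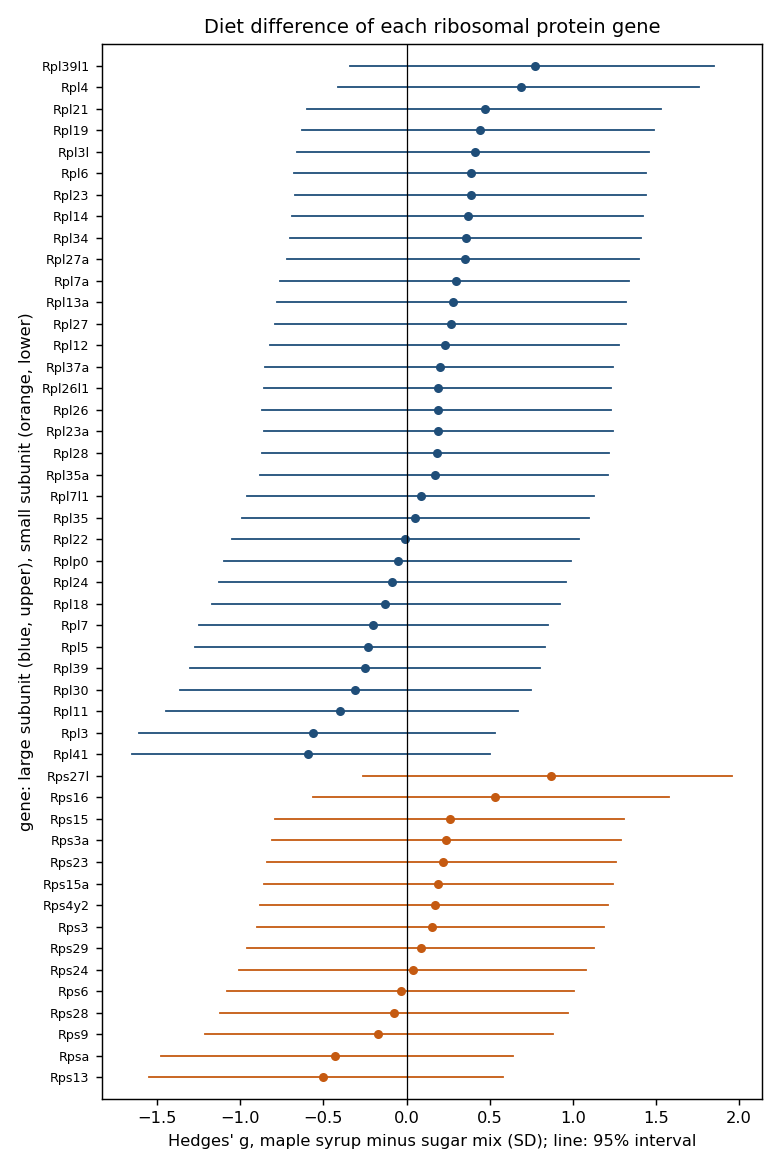
Hedges' g of each member, maple syrup minus sugar mix, in SD within diets, with its 95% interval (line), for the large subunit (blue) and the small subunit (orange), 6 animals per diet. All 48 intervals include 0, and g runs from -0.59 (Rpl41) to 0.87 (Rps27l).

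Large and small subunit genes gave similar medians. In the large subunit 22 of 33 members had g above 0 and the median g was 0.19, and in the small subunit 10 of 15 and 0.15, while 47.1% of all genes had g above 0, with a median of -0.039. The difference of the medians, large minus small, was 0.042. Leaving out 1 animal moved it to 0.17 without sugar mix replicate 3, to -0.078 without sugar mix replicate 2 and to -0.00032 without sugar mix replicate 4, so its sign was not stable. Without any other single animal it lay between 0.042 and 0.11. Within animals, the large less the small subunit median averaged -0.018 ± 0.33 with sugar mix and 0.021 ± 0.16 with maple syrup (SD, n = 6 each). The mean over animals of the large subunit median was -0.055 ± 0.95 with sugar mix and 0.12 ± 0.66 with maple syrup (SD, n = 6 each). For the small subunit it was -0.038 ± 0.95 and 0.10 ± 0.66 (SD, n = 6 each), so the differences were far smaller than the spread within a diet. The sign of these medians rested on single animals. Without sugar mix replicate 3 the median g was -0.063 for the large and -0.24 for the small subunit, with 12 of 33 and 4 of 15 above 0. Without maple syrup replicate 6 it was -0.05 and -0.092, with 15 of 33 and 5 of 15 above 0. Without sugar mix replicate 1 it was 0.32 and 0.27, and without sugar mix replicate 2 it was 0.044 and 0.12. Without sugar mix replicate 4 it was 0.082 for both, and without maple syrup replicate 5 it was 0.016 for the small subunit and without maple syrup replicate 1 0.074. Under median centring 32 of 33 and 15 of 15 members had g above 0, but the median of all genes moved from -0.039 to 0.18, beside 0.20 and 0.19 for the subunits. Under quantile normalization 34 members became constant and the medians of the other 9 large and 5 small subunit members were -0.15 and -0.41.

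**Figure D4:**
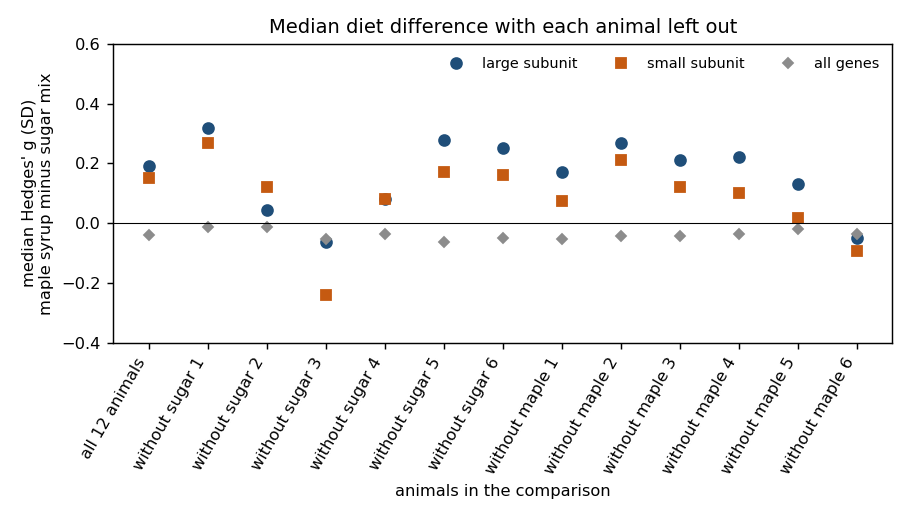
Median Hedges' g (SD), maple syrup minus sugar mix, of the large subunit genes, the small subunit genes and all genes, with all 12 animals and with each animal left out in turn. The subunit medians lie below 0 without sugar mix replicate 3 and without maple syrup replicate 6, and above 0 in the other comparisons.

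The members below are the 5 of each subunit with the smallest p, and their g is a description. In the small subunit Rps27l, the p53-induced paralog, came first. Its standardised level ran from -1.38 over a median of -0.55 to 0.60 with sugar mix and from -1.27 over 0.78 to 1.20 with maple syrup. The diets overlapped, although in 30 of 36 pairs the maple syrup animal lay above. Hedges' g came to 0.87 (95% interval -0.26 to 1.96), with a limma p of 0.121 before adjustment and an exact permutation p of 0.102. Without maple syrup replicate 1 its g was 1.47, with an unadjusted limma p of 0.0209 and an adjusted p of 0.95. Rps16 had g = 0.53, Rps13 -0.50, Rpsa -0.43 and Rps15 0.26. Rpsa, also known as the laminin receptor, had 3 probe sets, with g of -0.43, -0.075 and -0.24.

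In the large subunit Rpl39l1 ran from -1.11 over -0.49 to 0.51 with sugar mix and from -1.83 over 0.75 to 1.51 with maple syrup. The maple syrup animals held both extremes. With g = 0.77 (95% interval -0.34 to 1.85), the maple syrup animal lay above in 28 of 36 pairs. Rpl4 ran from -1.41 over -0.91 to 1.56 with sugar mix and from -0.51 over 0.35 to 1.33 with maple syrup (g = 0.69, 95% interval -0.41 to 1.76). Without maple syrup replicate 5, its lowest animal, Rpl39l1 had g = 1.91 (limma p 0.00533 before and 0.9994 after adjustment). Without sugar mix replicate 1, its highest animal, Rpl4 had g = 1.36 (limma p 0.0297 before and 0.9992 after adjustment). Rpl3, a protein of the peptidyl transferase centre, had g = -0.56, and its dimmer probe set gave -0.26. Rpl21 had g = 0.47 and Rpl3l 0.41. Rpl41, one of the smallest known eukaryotic proteins, had g = -0.59, with 9 of 36 pairs higher with maple syrup. The remaining listed paralogs, Rpl26l1, Rps4y2 and Rpl7l1, had g of 0.19, 0.17 and 0.085.

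Pairs of members were correlated over the 12 animals with a median Pearson r of 0.50 (1128 pairs, 84.8% above 0), against 0.0053 for all pairs of genes (50.6% above 0). The median was 0.48 within the large subunit, 0.54 within the small subunit and 0.53 between them, so pairs across the subunits were correlated about as closely as pairs within them. All pairs share the same 12 arrays and are given as a description. The value was lower without the animals named above. Without sugar mix replicate 3 the median was 0.38, and without sugar mix replicates 1 and 3 and maple syrup replicate 6 it was 0.18, against 0.0048 for all genes. Within the 6 sugar mix animals it was 0.70 (all genes 0.01) and within the 6 maple syrup animals 0.40 (all genes 0.0013). Sugar mix holds replicates 1 and 3 of the animals named above and maple syrup only replicate 6. These values therefore do not compare the diets, and a difference between them was not tested.

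**Figure D5:**
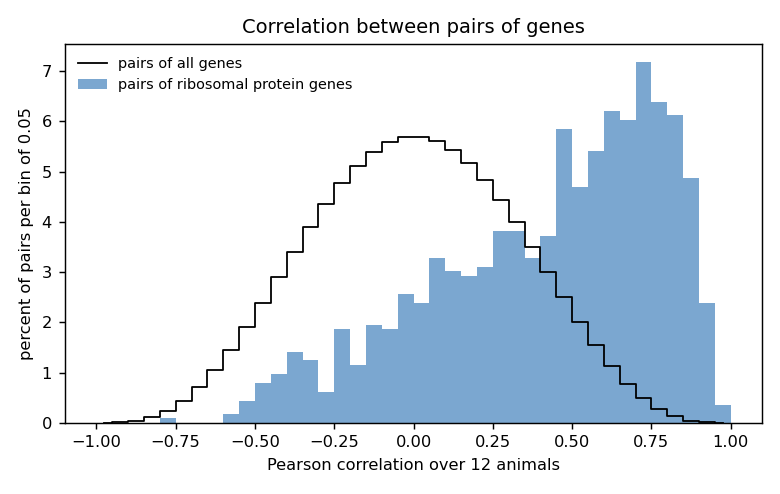
Percent of gene pairs by their Pearson correlation over the 12 animals, in bins of 0.05, for pairs of the 48 members (bars) and for all pairs of genes (line). The median is 0.50 for the members and 0.0053 for all genes.

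Members differed in how closely they followed the others. The correlation of a member with the mean of the other 47 exceeded 0.5 in 35 of 48 and 0.8 in 21. After Rplp0 (0.95) came Rps23 (0.94), a protein of the decoding centre, then Rpl14 and Rpl23a (0.93 each). The 38 members with a level over 11 had a median of 0.82 and the 10 others 0.15. The 5 listed paralogs had a median of 0.12, and 0 of them were lowest in sugar mix replicate 3, against 31 of the 43 other members. They all belong to the 10 members at the lower levels, of which 2 were lowest in that animal. Being a paralog and having a low level cannot be told apart here. Below 0 were Rps13 (-0.31), Rps4y2 (-0.29) and Rpl7l1 (-0.18). Bright core members could stand apart too, such as Rpl3 (0.23), Rps9 (0.40) and Rpl41 (0.49). The second probe set of Rpl3 was correlated with the first at 0.81, and that of Rpl7l1 at 0.72. The dim second probe sets of Rpl14 (0.01), Rpl7 (0.10) and Rps24 (-0.08) had correlations with the first near 0. The 12 members with the pyrimidine tract exactly at the annotated start had a median of 0.83, and the 31 other matched members 0.76. All 5 listed paralogs and Rpl39l1 (0.26) are among the 31 and none is among the 12, so these medians compare unlike members. A part of the tract in the correlation was not tested.

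Outside the set, the gene whose pattern over the 12 animals was most like the mean of the members was Rack1, with r = 0.98. Rack1 encodes a scaffold protein bound to the head of the small subunit, and its symbol lies outside the rule. It was at -1.92 in sugar mix replicate 3, 1.60 in sugar mix replicate 1 and 1.72 in maple syrup replicate 6, and its g was 0.093. Next came Ywhab (0.95), Pigx (0.94), Trmt112 (0.93) and Nsa2 (0.92). They are the highest of all other genes by this measure and are named for that alone.

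Other genes of translation were counted from lists. Of 33 measured translation factors, 20 had g above 0 and 13 below, with a median g of 0.089 and 0 called. Their median in sugar mix replicate 3 was -0.33, and 5 of 33 were lowest there. Eif3f, a subunit of the initiation factor that binds the small subunit, had the smallest p (g = 0.71) and was at -1.58 in that animal, and Eif2s2 (g = 0.68) was at -0.31. Eef1b2, of the elongation factor complex and named after its values were seen, was at -1.78 and was correlated with the member mean at 0.82. Over the 33 factors this correlation ran from -0.62 (Eif4a1) to 0.82 (Eef1b2), with a median of 0.32.

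Of 65 measured genes of ribosome assembly, 0 were lowest in sugar mix replicate 3, where their median was 0.60. Their median was also 0.60 in sugar mix replicate 1, where the members were high too, and -0.97 in maple syrup replicate 6. Their median correlation with the member mean over the 12 animals was -0.13. Between the diets 44 had g above 0 and 21 below, with a median of 0.23 and 0 called. Gnl3l had g = 0.91 (95% interval -0.23 to 2.01) and Nmd3, the export adaptor of the large subunit, 0.79 (95% interval -0.32 to 1.88). For RNA polymerase I and its factors, which make the ribosomal RNA, 10 of 19 had g above 0, with a median of 0.068 and 0 called; Taf1d and Polr1a each had g = 0.92. Of 18 known controllers of ribosomal protein messengers, 16 had g above 0 and 2 below, with a median of 0.34 and 0 called. Of all genes, 47.1% had g above 0. The list holds Mtor itself as well as genes that restrain it, so the count gives no direction of control. Among the 18, Tsc1, which restrains mTOR, had g = 0.81 (95% interval -0.31 to 1.90), and Myc had g = 0.74 (95% interval -0.37 to 1.82).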

How the data were processed

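The deposited table is the authors' processed score for 31099 probe sets on 12 Affymetrix arrays of rat liver RNA. How they were summarized and normalized is not stated in the sources used. Biotin-labelled cRNA was made from 2 ug of total RNA, per the labels' protocols, and groups and biological replicates were taken from the sample titles. Probe sets were named by the platform annotation and RefSeq gene table: 20832 had 1 symbol, 436 several and 9831 none here, and 57 controls were left out. Each gene was represented by its brightest probe set on average, and no filter on low values was applied. Diets were compared over all 14217 genes with limma 3.58.1 in R 4.3.3 (lmFit and eBayes with its trend option, two-sided; calls at a Benjamini-Hochberg p of 0.05; prior degrees of freedom 0.649), a test checked on simulated data. The simulated shifts were larger than the g of any member, so that check does not cover differences of the size reported here. The design had assumed values like log2. The score is compressed, so g and standardised levels are reported. Intervals of g (95%) use the noncentral t distribution, and two-sided exact permutation p values cannot go below 0.00216. Motifs and correlations were computed in Python 3.11.15 with NumPy 2.4.6 and SciPy 1.17.1, figures with matplotlib 3.10.9.

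Members, lists and tests were chosen with earlier results of these data known. Named members were the 5 with the smallest p, the 3 brightest and the 3 dimmest of each subunit, the stalk and 5S proteins, the listed paralogs and a fixed set; of other lists, the 2 genes with the smallest p; and the 5 other genes most like the member mean. Alternatives were other scalings, probe set rules, filters, variance models, array weights, a replicate block, permutation and each array left out. Chosen after seeing the data were the level of 11, the removal of Rpl39l1, the probe sets with several symbols and the correlations without named animals. Detection calls were not used here.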

Additional observations from a re-analysis of the deposited data

Results flagged for a closer look

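Among 56 sets of 6 animals, each a diet with a named member or a subunit median, 2 held an animal set apart from the rest; at the threshold used, chance would give 2.8. Rpl11 was at -1.26 in sugar mix replicate 3. The large subunit median was at 1.34 in maple syrup replicate 6.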

How the results depend on the processing

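With limma 0 members and 0 of all genes were called in every fit run, at an unadjusted p of 0.05 0 members and 616 genes in the fit reported, and 0 after adjustment with exact permutation. The median g kept its sign under other probe set rules, filters, variance models and array weights. With each animal left out in turn it ran from -0.063 to 0.32 for the large and from -0.24 to 0.27 for the small subunit. Without the listed paralogs it was 0.19 and 0.085, and over the probe sets with several symbols 0.10 and 0.075. Of the 10 members with a reported smallest p, quantile normalization turned the moderated t of Rpl39l1 to -0.67, Rpl21 to -1.06, Rpl3l to -0.32 and Rps27l to -0.73, and median centring that of Rps13 to 0.041 and Rpsa to 0.29. With arrays left out the t of Rps15 ran from -0.10 to 0.87. Quantile normalization left 964 genes constant. The cause of the changed signs was not tested. With the replicate number as a block the median g was 0.21 and 0.14 and 0 genes were called. The correlation of same-numbered animals exceeded 0.1 in 1 of 6 pairs. A weak link between same-numbered animals could pass unseen in this check, so pairing was not excluded. A difference within the intervals given was not excluded with 6 animals per diet.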
